A study of Mus musculus with 9 samples.

Results

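The 34 genes described here build the protein folding machinery of the endoplasmic reticulum (ER) or carry its stress signal, the unfolded protein response. They were taken by symbol: a probe set counted only if the platform's annotation gave it 1 symbol, older symbols were accepted (Ero1l for Ero1a), and the brightest probe set, averaged over the arrays, stood for the gene. All 34 were found on the array, out of 17097 genes tested. The rule used the signals only to pick the brightest probe set.

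Primary microglia came from cortices of C57BL/6J mice at P0-P2, and all groups shared this strain, age and tissue. Cultures fell into groups of 3. In GCM LN18, cells were kept for 6 h in glioma-conditioned medium (GCM), the medium taken from LN18 cells, and in GCM U87, for 6 h in the medium of U87-MG cells. Both are established human glioblastoma lines, so the mouse cells met human secreted proteins. Control cells were labelled as not stimulated, and the sources used here do not state whether their own medium was changed at the same time. Spent nutrients and secreted factors of a conditioned medium therefore cannot be told apart in this design. Each culture's RNA was measured on 1 array of the Affymetrix MG-430 PM Strip system. Precision is set by the number of arrays, 3 per group.

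The ER folds secreted and membrane proteins, and BiP, the product of Hspa5, is its central chaperone. When unfolded proteins build up, the membrane sensors IRE1 (Ern1), ATF6 (Atf6) and PERK (Eif2ak3) are activated. IRE1 splices the mRNA of Xbp1, a transcription factor; ATF6 is cut in the Golgi, and its free part enters the nucleus; PERK slows translation and raises the protein ATF4. XBP1 and ATF6 are known to raise the mRNA of chaperones, disulfide enzymes and the degradation machinery of the ER, while ATF4 raises Ddit3 (CHOP) and enzymes of amino acid supply. The arrays did not measure cleavage of ATF6 or phosphorylation by PERK, and they did not separate spliced from unspliced Xbp1 mRNA. In microglia, this machinery serves a large output of lysosomal and surface proteins.

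The deposited values are log2 signals, where a difference of 1 is 2-fold. Of 10 microglial marker genes listed 9 were matched, and their mean signal was 8.83 to 8.86 per array in GCM LN18, 8.67 to 8.86 in GCM U87 and 8.34 to 8.50 in control. P2ry12 and Tmem119 were the dim ones among them, with means of 3.65 and 4.28 over all arrays. Marker lists of neurons, astrocytes, endothelium, fibroblasts and the oligodendrocyte lineage had list means between 2.57 and 3.97 on every array. Single genes of these lists were brighter. The brightest averaged 6.83 for endothelium, 5.72 for the oligodendrocyte lineage, 4.99 for astrocytes, 4.01 for neurons and 3.15 for fibroblasts. Of the microglial markers, 5 of 9 were called higher in GCM LN18 and 2 of 9 in GCM U87, against 2.59% and 0.807% of all genes. With the replicate number as a block, described below, 2 and 1 were called, against 0.538% and 0.0468%. The part of this in the results below was not tested. Fewer cells of a type and less RNA per cell cannot be told apart in bulk RNA.

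For every probe set, the 3 arrays of a replicate number averaged the same whichever number was taken, within 1e-06. The deposited values were thus centred by replicate number, and each array's value depends on the others of its number. The test, limma's moderated statistic with Benjamini-Hochberg adjustment over the 17097 genes, counts 6 residual degrees of freedom without the replicate number as a block and 4 with it. The adjusted p with this block is given beside each call that it ended.

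A cis element of the pathway is shown first, because it is the known binding element of ATF6 and XBP1. The ER stress response element (ERSE) is CCAAT and CCACG with 9 bases of any kind between them, where the NF-Y factor binds the CCAAT end and ATF6 or XBP1 the CCACG end. RefSeq promoters on GRCm38.p6, from 250 bases before to 50 after the start, were searched on both strands. The table holds a promoter for 29 of the 34 genes, and Hyou1, Manf, Derl1, Sec61a1 and Atf6 have none in it. A match was found in 9 of the 29, against 0.119% of all 32851 promoters. The 9 were Hspa5, Hsp90b1, Calr, Canx, Dnajc3, Creld2, Pdia6, Syvn1 and Derl3. The matches of 5 genes are printed 5′ to 3′ in the direction of the motif, with its fixed letters in capitals, because these genes recur in the results below. They lie at chr2:34772015-34772053 (plus strand) for Hspa5, chr10:86705523-86705561 (plus strand) for the nearer of 2 matches of Hsp90b1, chr8:84847065-84847103 (plus strand) for Calr, chr15:88819510-88819548 (minus strand) for Creld2 and chr12:17266481-17266519 (plus strand) for Pdia6.
Hspa5: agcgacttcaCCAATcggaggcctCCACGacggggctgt
Hsp90b1: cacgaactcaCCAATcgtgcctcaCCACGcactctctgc
Calr: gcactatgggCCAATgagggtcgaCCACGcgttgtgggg
Creld2: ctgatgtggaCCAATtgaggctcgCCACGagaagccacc
Pdia6: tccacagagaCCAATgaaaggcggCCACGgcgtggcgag

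The related ERSE-II, ATTGG and CCACG with 1 base of any kind between them, was found in Dnajb11 and Herpud1, against 0.0365% of all promoters, without overlap with an ERSE. The Herpud1 match, shown because this gene had the lowest fold change of the 34 in both media, lies at chr8:94386367-94386397 (plus strand), with the fixed letters in capitals.
Herpud1: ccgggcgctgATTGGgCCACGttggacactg

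The core of the unfolded protein response element, TGACGTGG, was found in 0 of the 29 promoters and in 0.676% of all. A match describes letters in this window and not binding.

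In GCM LN18, 0 of the 34 genes were called higher and 2 lower, Atf6 and Wfs1, against a background over all genes of 2.59% higher and 2.64% lower. With the replicate block the 2 calls were lost, against a background of 0.538% higher and 0.339% lower. In GCM U87, 0 genes were called higher and 0 lower by limma (background 0.807% higher and 0.708% lower), nor any with the block (background 0.0468% and 0%). At an unadjusted p under 0.05 there were 9 genes in GCM LN18, 4 higher and 5 lower, against 20.6% of all genes, and 9 in GCM U87, 6 higher and 3 lower, against 17% of all genes. The median log2 fold change of the 34 was 0.05 in GCM LN18 and 0.04 in GCM U87, beside -0.00 over all genes in each. The 2 calls among 34 genes thus stood near the background share.

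How large a change the arrays leave room for is given by the 95% intervals. With the replicate block, which gives the wider intervals, all 34, each taken alone, excluded a 2-fold rise of the signal in each medium. The interval lay within 2-fold in both directions for 33 genes in GCM LN18, all except Herpud1, and for 34 in GCM U87. It lay within 1.5-fold for 29 genes in GCM LN18 and 27 in GCM U87. These intervals concern 6 h and no other time, and they do not hold jointly over the 34 genes. They bound the signal of 1 probe set per gene. Those of Pdia3, Wfs1 and Derl3 were dim, with means of 5.19, 5.20 and 4.01, beside a median of 4.34 over all genes. For such genes an interval of the signal may not bound the change of the mRNA.

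**Figure D1:**
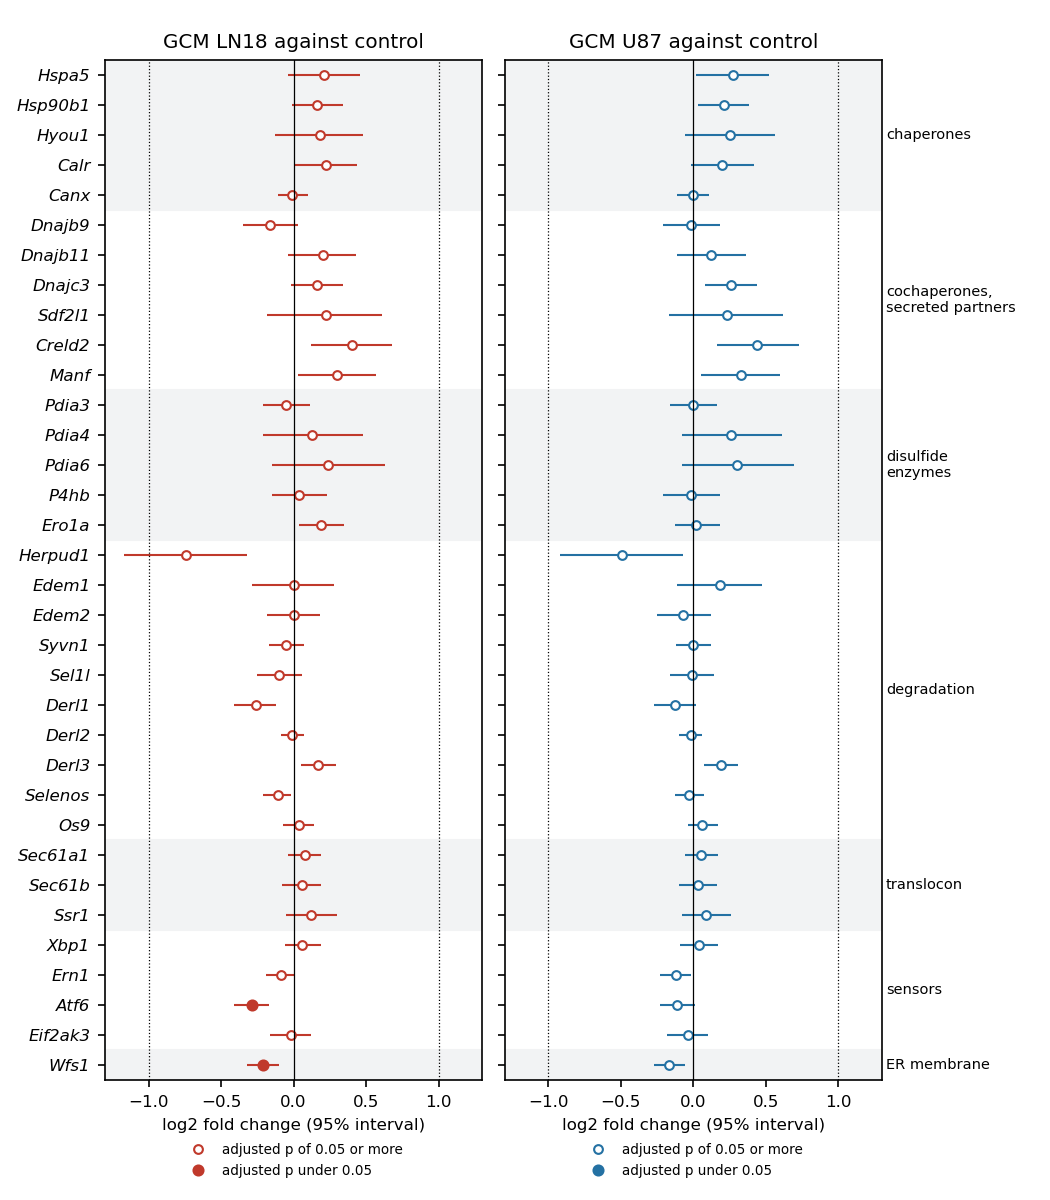
Log2 fold change of each of the 34 genes (circle) with its 95% interval without the replicate block (line), for GCM LN18 on the left and GCM U87 on the right, by role; the dotted lines mark 2-fold. Atf6 and Wfs1 in GCM LN18 are the filled circles, with an adjusted p under 0.05, and Herpud1 is the gene farthest from 0 in both media (-0.74 and -0.49).

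The ER chaperones bind folding proteins directly, and none of the 5 passed the test. Hspa5 had 10.96, 10.63 and 10.84 in GCM LN18, 10.94, 10.88 and 10.78 in GCM U87 and 10.37, 10.77 and 10.66 in control. The GCM U87 arrays lay above all controls by a narrow margin, while GCM LN18 overlapped control, and control replicate 1 was the lowest array. The log2 fold change of Hspa5 was 0.21 (95% interval -0.04 to 0.46, adjusted p = 0.327 by limma) in GCM LN18 and 0.27 (0.02 to 0.52, adjusted p = 0.262) in GCM U87. Hsp90b1, the ER member of the Hsp90 family, had 10.91, 10.75 and 10.80 in GCM LN18, 10.95, 10.84 and 10.80 in GCM U87 and 10.49, 10.74 and 10.74 in control. Its log2 fold change was 0.16 ± 0.08 (SE) in GCM LN18 and 0.21 ± 0.08 in GCM U87, with an adjusted p of 0.267 and 0.220 by limma. Both media lay above control without overlap for Hsp90b1, by 0.01 between GCM LN18 replicate 2 and the controls next to it, and control replicate 1 was again the lowest. A second probe set of Hspa5 gave 0.15 in GCM LN18 and 0.33 in GCM U87. That of Hsp90b1 gave 0.31 and 0.23, so the order of the media differed between its probe sets. Neither second probe set passed the test.

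The remaining chaperones differed among themselves. Calr encodes calreticulin, which binds sugar chains of folding glycoproteins, and averaged 10.70 ± 0.09 in GCM LN18, 10.68 ± 0.11 in GCM U87 and 10.49 ± 0.20 in control (SD, n = 3 each), with overlap in each medium. Canx, which encodes its membrane partner calnexin, averaged 10.72 in both media and 10.73 in control, and its 95% interval of -0.11 to 0.10 in GCM LN18 was among the narrower ones. Hyou1, a large chaperone that helps BiP release its nucleotide, averaged 7.96 ± 0.15 in GCM LN18, 8.03 ± 0.14 in GCM U87 and 7.78 ± 0.29 in control, and the control spread was the widest of the 3 groups.

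The cochaperones and secreted partners held the highest fold changes of the 34 genes, and none passed the test. Creld2, a secreted ER stress protein whose promoter carries the ERSE printed above, had 8.26, 7.97 and 8.09 in GCM LN18, 8.29, 8.11 and 8.06 in GCM U87 and 7.42, 7.89 and 7.82 in control. Both media lay above all controls. Its log2 fold change was 0.40 (0.12 to 0.68, adjusted p = 0.11 by limma) in GCM LN18 and 0.44 (0.16 to 0.73, adjusted p = 0.121) in GCM U87. Manf, a secreted factor that binds BiP, had 9.43, 9.01 and 9.16 in GCM LN18, 9.25, 9.27 and 9.16 in GCM U87 and 8.66 to 9.05 on the 3 control arrays. Manf was above all controls in GCM U87 only, and its log2 fold change was 0.30 (adjusted p = 0.199 by limma) in GCM LN18 and 0.33 (adjusted p = 0.216) in GCM U87. Dnajc3, a J-domain cochaperone that also inhibits PERK, had log2 fold changes of 0.16 and 0.26, Dnajb11, another J-domain protein, 0.20 and 0.12, and Sdf2l1, a partner of Dnajb11, 0.22 and 0.23, each in GCM LN18 and then in GCM U87. Dnajb9, a J-domain protein known as a target of XBP1 that keeps IRE1 in check, stood on the other side of 0 with -0.16 (-0.35 to 0.03) in GCM LN18 and -0.02 in GCM U87.

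The disulfide enzymes make and rearrange the sulfur bridges of secreted proteins, and 0 of 5 passed the test. Ero1a, the oxidase that recharges the protein disulfide isomerases, had 7.90, 7.90 and 7.93 in GCM LN18, 7.82, 7.62 and 7.79 in GCM U87 and 7.65, 7.86 and 7.65 in control. The 3 GCM LN18 arrays lay close together and above every array of the other groups. Its log2 fold change was 0.19 in GCM LN18 (adjusted p = 0.157 by limma) and 0.02 in GCM U87. A dimmer probe set of Ero1a had -0.06 and -0.32, so the probe sets of this gene disagreed. Pdia6 and Pdia4, both isomerases, had 0.24 and 0.13 in GCM LN18 and 0.30 and 0.26 in GCM U87, while P4hb and Pdia3, 2 further isomerases, lay between -0.05 and 0.04 in both media. Pdia3 had only 1 probe set, a dim one with a mean of 5.19 over the 9 arrays, beside 10.23 for P4hb.

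The 16 folding genes, which are the chaperones, cochaperones and disulfide enzymes together, thus leaned to one side: 13 of 16 were above 0 in each medium, with a median log2 fold change of 0.18 in GCM LN18 and 0.22 in GCM U87. Control replicate 1 was the lowest of the 9 arrays for 12 of these 16 genes, or 75%, against 17.1% of all genes. For these 16 its median deviation from the gene mean was -0.35, beside 0.03 in control replicate 2 and -0.04 in control replicate 3. Because the values are centred by replicate number, GCM LN18 replicate 1 and GCM U87 replicate 1 had the opposite deviations, with medians of 0.16 and 0.17. Fitted without control replicate 1 and with the replicate block, the median over the 16 was -0.02 in GCM LN18 and 0.01 in GCM U87, with 8 and 9 of 16 above 0. Without that array and without the block, the medians were 0.06 and 0.09, with 11 and 12 of 16 above 0. The lean was thus smaller without this array in both fits. Leaving out the control array that is lowest for most of these genes lowers such medians by construction. The cause of the lean was not tested. With the block and without that array Hspa5 had 0.04 and 0.10, and Creld2 0.18 and 0.22.

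**Figure D2:**
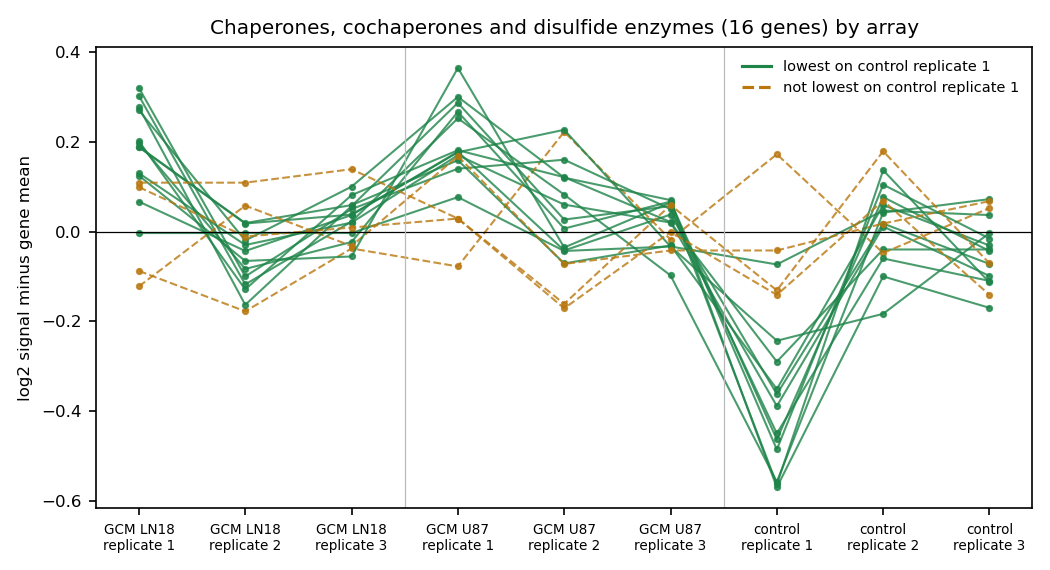
Log2 signal minus the gene's mean over 9 arrays for the 16 folding genes (1 line each) on the 9 arrays, with GCM LN18 at left, GCM U87 in the middle and control at right. Solid green lines are the 12 genes that were lowest on control replicate 1, and dashed orange lines the other 4; the green lines drop at that array to as low as about -0.57 and lie near 0 on control replicates 2 and 3.

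Grouped by promoter, the 9 genes with an ERSE had a median log2 fold change of 0.17 in GCM LN18 and 0.21 in GCM U87, with 7 and 8 of 9 above 0. The 20 genes with a promoter in the table and no ERSE had medians of 0.00 and -0.00, with 10 of 20 above 0 in each medium. The 11 other genes tested that carry an ERSE had medians of -0.01 and 0.00. Of the 9 genes, 8 were lowest on control replicate 1, all except Syvn1, against 8 of the 20 and 17.1% of all genes. Without that array and with the block, the 9 genes with an ERSE had medians of 0.04 in GCM LN18 and 0.08 in GCM U87. Of them 7 and 8 were above 0. The 20 without had -0.07 and -0.04, with 6 and 4 of 20 above 0.

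ER-associated degradation (ERAD) sends misfolded proteins back to the cytosol, and 0 of its 10 genes passed the test in either medium. Herpud1, a membrane protein that organises the degradation complex, had 6.33, 6.15 and 6.73 in GCM LN18, 6.42, 6.90 and 6.64 in GCM U87 and 7.45, 7.16 and 6.83 in control. All GCM LN18 arrays lay below all controls, while GCM U87 replicate 2 overlapped control replicate 3. The log2 fold change of Herpud1 was -0.74 (-1.17 to -0.32, adjusted p = 0.056 by limma) in GCM LN18 and -0.49 (-0.92 to -0.07, adjusted p = 0.228) in GCM U87. Its other probe set gave -0.63 and -0.44. Without control replicate 1 and with the block, Herpud1 had -0.52 and -0.27, smaller distances than with it, and here that array was the highest of the 9.

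Derl1, a subunit of the channel through which proteins leave the ER, lay at or below the lowest control on every treated array. It had 7.86, 7.94 and 8.07 in GCM LN18, 8.10, 8.08 and 8.10 in GCM U87 and 8.31, 8.25 and 8.10 in control. The log2 fold change was -0.26 (-0.41 to -0.12, adjusted p = 0.0512 by limma) in GCM LN18 and -0.13 (adjusted p = 0.355) in GCM U87, and all 3 probe sets of Derl1 were below 0 in both media. Its paralog Derl2 had -0.01 and -0.02, with a 95% interval of -0.09 to 0.07 in GCM LN18, and Derl3, another paralog and a dim one, had 0.17 and 0.19 with both media above all controls. A second, dimmer probe set of Derl2 had -0.14 in GCM LN18 and -0.16 in GCM U87. None of the derlins passed the test, so no shared or opposite direction is read from them. Syvn1, the ubiquitin ligase of the complex, and Sel1l, its partner, had -0.05 and -0.10 in GCM LN18 and 0.00 and -0.01 in GCM U87. Selenos, a selenoprotein of the complex, had -0.11 and -0.03, and the lectins Edem1, Edem2 and Os9, which read the sugar chains of misfolded proteins, lay between -0.07 and 0.18.

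The translocon lets new proteins into the ER. Its genes Sec61a1 and Sec61b, subunits of the channel, and Ssr1, of the associated complex, had log2 fold changes between 0.06 and 0.12 in GCM LN18 and between 0.03 and 0.09 in GCM U87. None passed the test, and all 3 were lowest on control replicate 1.

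**Figure D3:**
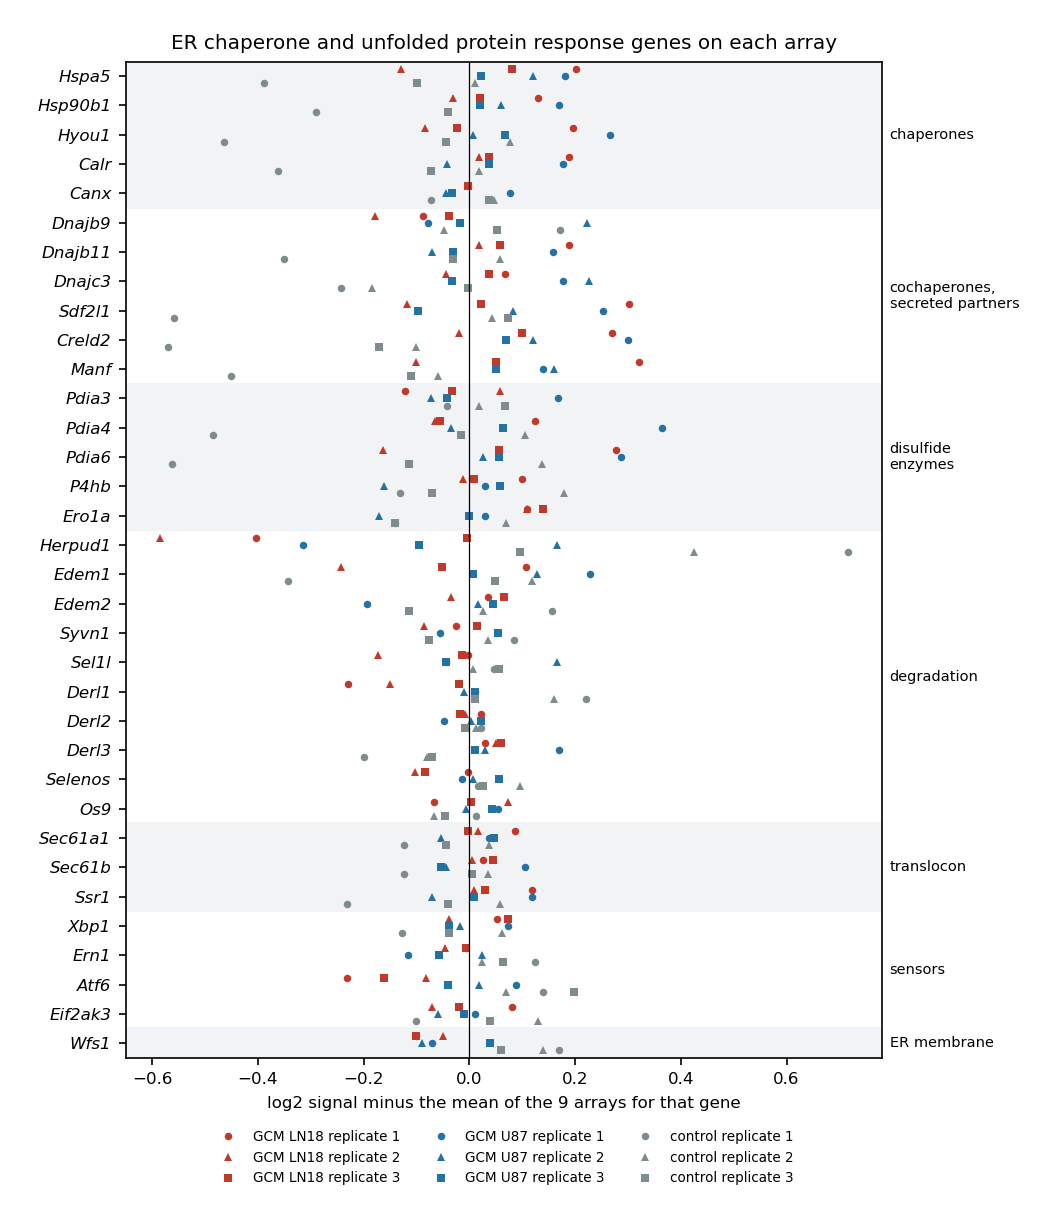
Log2 signal minus the mean of the 9 arrays for each of the 34 genes, by role from top to bottom; colours mark GCM LN18 (red), GCM U87 (blue) and control (grey), and circle, triangle and square mark replicates 1, 2 and 3. The grey circles of control replicate 1 are the lowest points for 19 of the 34 genes and the highest for 7, among them Herpud1 and Derl1.

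Among the sensors, Atf6 fell in GCM LN18. It had 7.01, 7.16 and 7.08 in GCM LN18, 7.33, 7.26 and 7.20 in GCM U87 and 7.38, 7.31 and 7.44 in control, so GCM LN18 lay below both other groups and GCM U87 overlapped control. The log2 fold change of Atf6 was -0.29 ± 0.05 (SE; -0.41 to -0.17, adjusted p = 0.018 by limma, 0.11 with the block) in GCM LN18 and -0.11 (-0.23 to 0.01, adjusted p = 0.331) in GCM U87. The difference between the media, -0.18, had an adjusted p of 0.267. A second, dimmer probe set of Atf6 had 0.09 in GCM LN18 and -0.03 in GCM U87, and with the mean of both probe sets the fold change in GCM LN18 was -0.10 (adjusted p = 0.28), so the call belongs to 1 probe set. Without control replicate 1 and with the block its size was the same, -0.29 (adjusted p = 0.218). Left out 1 at a time without the block, 4 of the 9 arrays ended the call, control replicates 1 and 3 and GCM LN18 replicates 1 and 3, with adjusted p up to 0.0724.

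The other sensors did not pass the test. Ern1, the IRE1 gene, had 6.90, 6.86 and 6.90 in GCM LN18, 6.79, 6.93 and 6.85 in GCM U87 and 7.03, 6.93 and 6.97 in control, with log2 fold changes of -0.09 (-0.19 to 0.01, adjusted p = 0.306) and -0.12 (-0.23 to -0.02, adjusted p = 0.223). Its values lay slightly below control in both media, without overlap in GCM LN18. Eif2ak3, the PERK gene, had 6.71, 6.56 and 6.61 in GCM LN18, 6.64, 6.57 and 6.62 in GCM U87 and 6.53, 6.76 and 6.67 in control. The Eif2ak3 groups overlapped, with log2 fold changes of -0.02 (-0.16 to 0.12, adjusted p = 0.869) and -0.04 (-0.18 to 0.10, adjusted p = 0.757). Xbp1 had 10.36, 10.27 and 10.38 in GCM LN18, 10.38, 10.29 and 10.27 in GCM U87 and 10.18, 10.37 and 10.27 in control. Its groups overlapped as well, with 0.06 (-0.06 to 0.19, adjusted p = 0.567) and 0.04 (-0.09 to 0.17, adjusted p = 0.763), and the signal was not split into spliced and unspliced Xbp1.

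Wfs1, an ER membrane protein of calcium balance whose loss is known to cause ER stress in other tissues, fell in GCM LN18. It had 5.10, 5.15 and 5.10 in GCM LN18, 5.13, 5.11 and 5.24 in GCM U87 and 5.37, 5.34 and 5.26 in control, and both media lay below all controls. The log2 fold change of Wfs1 was -0.21 ± 0.05 (SE; -0.32 to -0.10, adjusted p = 0.0417 by limma, 0.218 with the block) in GCM LN18 and -0.17 (-0.27 to -0.06, adjusted p = 0.131) in GCM U87. Left out 1 at a time, 6 of the 9 arrays ended the call in GCM LN18, each treated and control array of it except control replicate 3, and GCM U87 replicate 1, with adjusted p up to 0.131.

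Groups without overlap were counted over the 34 genes. In GCM LN18, 4 genes lay above control and 7 below, against 11.1% and 12.8% of all genes. In GCM U87, 5 lay above and 2 below, against 8.79% and 10.3%. The comparisons of the media with control share the 3 control arrays, so their values for a gene are not independent. GCM LN18 against GCM U87 uses no control array, and 0 of the 34 genes were called higher or lower by limma, against 0.00585% higher and 0% lower of all genes. At an unadjusted p under 0.05 there were 2, Atf6 (-0.18, lower in GCM LN18) and Ero1a (0.17, higher in GCM LN18), against 12% of all genes. Ero1a did not overlap between the media, nor did Atf6 and Derl1, which is 1 gene higher and 2 lower in GCM LN18, against 8.92% and 8.48% of all genes.

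Genes of the PERK and ATF4 arm were listed apart from the 34. The arrays did not measure the activity of PERK, and whether PERK had a part in the changes of these genes was not tested. Of 15 genes listed for this arm 14 were measured. Of these, 0 were called higher and 5 lower in GCM LN18, with a median log2 fold change of -0.34, and 0 and 3 in GCM U87, with a median of -0.40, against 2.64% and 0.708% of all genes called lower. With the replicate block, 2 and 0 were called lower, against 0.339% and 0% of all genes. At an unadjusted p under 0.05 there were 8 of the 14 in each medium, all lower, against 20.6% and 17% of all genes. In GCM LN18 7 genes, and in GCM U87 8, lay below control without overlap, against 12.8% and 10.3% of all genes. Control replicate 1 was the highest of the 9 arrays for 11 of the 14 genes, or 78.6%, against 17.2% of all genes. Without that array the medians were -0.30 in GCM LN18 and -0.28 in GCM U87, with 3 and 1 called lower, and with the block as well -0.26 in each, with 1 and 0 called lower. Atf4, the transcription factor of this arm, had 9.24, 9.26 and 9.48 in GCM LN18, 9.29, 9.31 and 9.25 in GCM U87 and 9.97, 9.92 and 9.76 in control, and neither medium overlapped control. In log2 units Atf4 fell by 0.56 in GCM LN18 (-0.72 to -0.39, adjusted p = 0.00464 by limma, 0.0377 with the block) and by 0.60 in GCM U87 (-0.77 to -0.43, adjusted p = 0.0107, 0.0838 with the block). With the mean of the probe sets of Atf4, it was -0.26 (adjusted p = 0.0503) and -0.31 (adjusted p = 0.0541).

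Ddit3, the stress factor CHOP downstream of ATF4, had 6.48, 6.62 and 6.83 in GCM LN18, 6.81, 6.94 and 6.88 in GCM U87 and 7.70, 7.42 and 7.28 in control. All treated arrays lay below all controls. In log2 units Ddit3 fell by 0.82 in GCM LN18 (-1.08 to -0.57, adjusted p = 0.00546 by limma, 0.0354 with the block) and by 0.59 in GCM U87 (-0.85 to -0.33, adjusted p = 0.0459, 0.207 with the block). Leaving out any 1 array kept the GCM LN18 call of Atf4 and Ddit3 without the block, and 8 of the 9 arrays ended the GCM U87 call of Ddit3, all except control replicate 3. The GCM U87 call of Atf4 was lost without GCM U87 replicate 1 or 3. Without control replicate 1 and with the block, Atf4 had -0.49 (adjusted p = 0.0796) and Ddit3 -0.65 (adjusted p = 0.0401) in GCM LN18. Neither gene was called in GCM LN18 with the block and without GCM LN18 replicate 1 or 2, GCM U87 replicate 1 or 3, or control replicate 2.

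Ppp1r15a, which encodes the GADD34 subunit that reverses the translation block, had 5.08, 5.19 and 5.29 in GCM LN18, 5.18, 5.10 and 5.25 in GCM U87 and 5.75, 5.73 and 5.47 in control. It fell by 0.46 in GCM LN18 (adjusted p = 0.0155 by limma, 0.0793 with the block) and by 0.47 in GCM U87 (adjusted p = 0.0339, 0.19 with the block), without overlap. The other 2 genes called lower in GCM LN18 were named after their values were seen: Ppp1r15b, its constitutive relative, at -0.23 (adjusted p = 0.0285, 0.173 with the block), and Chac1, a glutathione-degrading enzyme raised by ATF4, at -0.94 (adjusted p = 0.0378, 0.12 with the block). The GCM LN18 calls of Ppp1r15a, Ppp1r15b and Chac1 were each lost without GCM LN18 replicate 1 or 2. That of Ppp1r15b was lost without 4 of the 9 arrays, also control replicates 1 and 3. That of Chac1 was lost without 5, also control replicates 1 and 2 and GCM U87 replicate 1. The GCM U87 call of Ppp1r15a was lost without 6 of the 9 arrays, each except control replicate 3, GCM LN18 replicate 1 and GCM LN18 replicate 3.

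**Figure D4:**
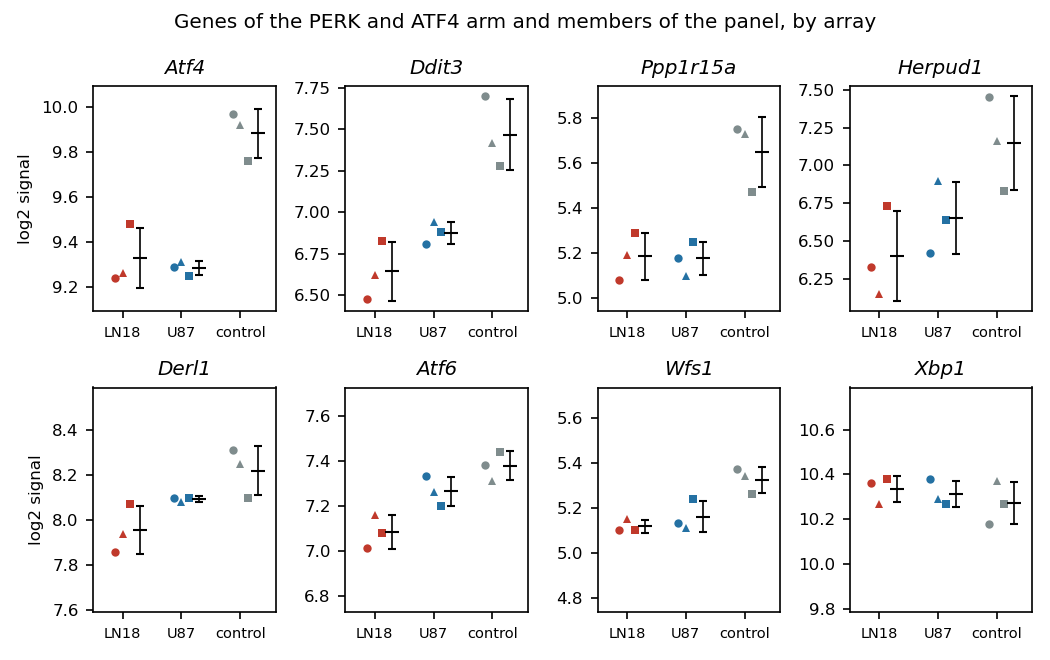
Log2 signal on each array for Atf4, Ddit3 and Ppp1r15a of the PERK and ATF4 arm and for Herpud1, Derl1, Atf6, Wfs1 and Xbp1, with GCM LN18 (red), GCM U87 (blue) and control (grey) from left to right and replicates 1, 2 and 3 as circle, triangle and square. Bars are the mean ± SD of 3 arrays and each panel has its own vertical range; the treated arrays of Atf4, Ddit3 and Ppp1r15a lie below all controls, while those of Xbp1 overlap them.

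The other lists around the ER had few calls, all of them in GCM LN18 and higher than control. Of all genes, 2.59% were called higher in GCM LN18, and 0.538% with the block. Among 35 further ER folding enzymes and cochaperones measured of 38 listed, only Cnpy2, a small ER protein of the saposin-like family, rose, by 0.22 (adjusted p = 0.0326, 0.191 with the block), and the median of the list was 0.04 in GCM LN18 and 0.05 in GCM U87. With the mean of its probe sets Cnpy2 had 0.05 (adjusted p = 0.653). Among 22 further degradation genes of 26 and 28 translocon, signal peptidase and glycosylation genes of 32, limma called 0 in either medium. At an unadjusted p under 0.05 these 2 lists held 5 and 4 genes in GCM LN18, against 20.6% of all genes, and 1 and 6 in GCM U87, against 17% of all genes.

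Of 29 genes of ER to Golgi transport, 1 was called higher in GCM LN18, against 2.59% of all genes. With the block it was also 1, against 0.538%. This gene was Mcfd2, a cargo receptor subunit that carries clotting factors out of the ER. It had 9.26, 9.30 and 9.20 in GCM LN18, 9.13, 9.08 and 9.10 in GCM U87 and 8.87, 8.88 and 8.96 in control, so the 3 groups did not overlap. The rise of Mcfd2 was 0.35 in GCM LN18 (0.26 to 0.45, adjusted p = 0.00309 by limma, 0.0434 with the block) and its log2 fold change was 0.20 in GCM U87 (adjusted p = 0.054). In this list 25 of 29 genes were above 0 in GCM LN18 and 24 in GCM U87, against 48.5% and 48.7% of all genes, with medians of 0.10 and 0.07. Control replicate 1 was the lowest of the 9 arrays for 17 of the 29, or 58.6%, against 17.1% of all genes. Without that array and with the block, 19 of 29 were above 0 in each medium, with medians of 0.04 and 0.01.

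Of 11 further sensors and transducers, 2 were called higher in GCM LN18, against 2.59% of all genes. With the block 0 were, against 0.538%. Creb3l2, a membrane-bound relative of ATF6, rose by 0.48 (adjusted p = 0.045, 0.15 with the block), and Bcl2l11, which encodes the cell death protein BIM, by 0.35 (adjusted p = 0.0107, 0.079 with the block). In GCM U87 they had 0.41 and 0.21 without passing the test. Of 20 cytosolic and mitochondrial heat shock genes measured of 24, 2 were called higher in GCM LN18 and 0 with the block, against the same shares. Hsph1, a nucleotide exchange chaperone, rose by 0.37 (adjusted p = 0.0273, 0.119 with the block) and Bag3, a cochaperone of Hsp70, by 0.25 (adjusted p = 0.0171, 0.126 with the block) in GCM LN18. In GCM U87 Hsph1 had 0.35 (adjusted p = 0.064) and Bag3 0.21 (adjusted p = 0.0633), and the list medians were -0.03 in GCM LN18 and 0.02 in GCM U87. Leaving out any 1 array kept the calls of Mcfd2 and Bcl2l11 without the block. With the block and any 1 array left out, neither Mcfd2 nor Bcl2l11 was called. The calls of Cnpy2, Creb3l2, Hsph1 and Bag3 were lost without GCM LN18 replicate 1 or 2, and without 3 to 8 arrays in all. In GCM U87 limma called 0 genes of these lists. At an unadjusted p under 0.05 there were 6 of the 35 folding enzymes, 10 of the 29 ER to Golgi genes, 3 of the 11 sensors and 7 of the 20 heat shock genes in GCM LN18, against 20.6% of all genes. In GCM U87 there were 7, 4, 3 and 5, in the same order, against 17% of all genes.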

How the data were processed

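RNA of 9 primary microglia cultures, 3 per group, was measured on Affymetrix MG-430 PM strips. The table deposited holds normalized log2 signals for 45141 probe sets. The submitters' notes name limma, and the background correction and normalization of these arrays are not given in the sources used here. Control probe sets (104) were left out, as were probe sets naming several genes (551) or unnamed here (15588), and the brightest of the 28898 others stood for each of 17097 genes. Linear models with 1 mean per group over all 9 arrays came from limma 3.58.1 (R 4.3.3), with Benjamini-Hochberg adjustment over all genes and a threshold of 0.05. Replicates came from separate cortical cultures; the sources do not state whether a number marks 1 culture in all groups. Deviations of same-numbered arrays from their group means correlated between -0.698 and -0.187, as values centred by number do, so this check cannot show pairing, and the fit with the block is an alternative.

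The 34 genes and all lists were chosen with earlier results of these data known. Full statistics were set for genes past the test, the stress sensors, Hspa5 and Hsp90b1, and for at most 3 genes per further list, those past the test with the lowest adjusted p; Creld2, Manf, Ero1a, Herpud1 and Derl1 were given in detail after their values were seen. Alternatives were the replicate block, a filter on dim genes, trend and robust estimation, the mean of the probe sets, adjustment over all probe sets, only the groups compared, quantile normalization, median centring, array weights and each array left out; the block with each array left out, and all alternatives for the further lists and the promoter groups, were added after the data were seen. The fit was tested on simulated data. Promoters are from RefSeq on GRCm38.p6.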

Additional observations from a re-analysis of the deposited data

How the results depend on the processing

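With 3 arrays per group, a gene that missed the threshold is not shown to be unchanged: Herpud1 at -0.74 in GCM LN18 was not called. Atf6 and Wfs1 were the 2 genes called lower in GCM LN18. This count was 0 with the replicate block, 1 with the mean of the probe sets or with only the groups compared, 4 with only genes above the median level of 4.34, where Herpud1 and Derl1 were added, and 0 to 3 with 1 array left out (0 without control replicate 1 or GCM LN18 replicate 1). With the block and 1 array left out it was 0 throughout. The counts of the 34 genes called higher in GCM LN18, and in either direction in GCM U87 or between the media, were 0 under all 27 alternatives. The median of the 34 genes with the block was -0.03 without control replicate 1 and 0.13 without control replicate 2 in GCM LN18, and 0.11 without control replicate 2 in GCM U87. Leaving aside the block with an array left out, 8 uncalled genes changed sign in GCM LN18, 13 in GCM U87 and 22 between the media, at most 0.13, 0.07 and 0.09 in size. Over the 7 further lists, 6 genes were called higher in GCM LN18, against 1 with the block, 2 to 5 with 1 array left out and 0 with both. There 5 were called lower, against 2 with the block, 3 with the mean of the probe sets or only the groups compared, 8 above the median level, 2 to 7 with 1 array left out and 0 to 4 with the block as well. In GCM U87, 3 were called lower, against 0 with the block, 1 with only the groups compared, 0 to 4 with 1 array left out and 0 or 1 with both, and 0 higher, against 1 with trend and robust estimation and 2 with the mean of the probe sets or above the median level. The causes were not tested.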
